A study of Mus musculus with 6 samples.

Results

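Interferon-stimulated effector genes encode the proteins through which a cell that has sensed interferon blocks a virus: RNA-binding proteins that stop viral translation, an enzyme whose product stops viral polymerases, a tether that holds virions on the membrane, and a sensor of viral RNA. 10 such genes were taken by symbol: Rtp4, Isg15, Ifit1, Ifit2, Ifit3, Oasl2, Bst2, Mx1, Ifih1 and Rsad2. Those whose symbol stood alone on a probe set of the array were kept, which gave 9 of the 10 genes and 12 of 45037 probe sets tested. The probe set that carries Isg15, the ubiquitin-like modifier, also carries a second gene symbol, so Isg15 has no value here.

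The arrays compared haematopoietic stem cells (HSCs) from the bone marrow of SCL-tTA H2B-GFP mice. In these animals the endogenous scl locus drives the tTA-S2 transactivator, which switches on a fusion of histone H2B with green fluorescent protein (GFP) through a tetracycline-responsive element, and expression is limited by that locus to HSCs and progenitors. All mice in both groups carried these transgenes and had received doxycycline for 170 days, which shuts the fusion off so that it is diluted as cells divide. All cells were gated as CD34 Neg, Lin Neg, Sca1+, cKit+, CD150+ and CD48 Neg, then split into GFP+ label-retaining cells (LRC, 3 samples) and GFP Neg cells (non-LRC, 3 samples). A GFP Neg cell may have diluted its label or may never have carried it. The sources used here do not give the age of the mice, the strain background or the number of mice behind each sample.

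Type I interferon binds a receptor made of Ifnar1 and Ifnar2, whose kinases are Jak1 and Tyk2. Signalling leads to a complex with Stat2 and Irf9 that binds the interferon-stimulated response element (ISRE) in the promoters of effector genes. Interferon alpha is known to drive dormant HSCs into the cell cycle, and stem cells are known to keep some interferon-stimulated genes on without infection, so the level of these genes in label-retaining and other HSCs is a question the comparison can address.

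The ISRE core is what the promoters of most of these genes share. The selection by symbol did not use it, but the genes were chosen as interferon-stimulated, so its presence is not an independent result. It was searched as GAAANNGAAA on both strands, in windows from 250 bases before to 50 bases after each gene start, with overlapping matches counted separately. The RefSeq sequences of build GRCm38.p6 held windows for 8 of the 10 genes, and not for Rtp4 and Mx1. The motif was in the windows of 6 of these 8 genes, Ifit1, Ifit3, Rsad2, Bst2, Ifih1 and Isg15, and in 3.44% of all 32851 windows. By windows the share was 66.7% for the members and 30.9% for a list of other interferon-stimulated genes. It was 18.8% for genes of nucleic acid sensing and interferon induction, and 13.3% for interferon receptors and JAK-STAT signalling. Neither the window of Oasl2 nor either of those of Ifit2 held these letters. Below are the 160 bases before the start, 5′ to 3′ on the strand of the gene, for 4 measured genes, with matches in capitals (TTTCNNTTTC is the motif on the other strand).
Ifit1 (chr19:34640729-34640888, + strand): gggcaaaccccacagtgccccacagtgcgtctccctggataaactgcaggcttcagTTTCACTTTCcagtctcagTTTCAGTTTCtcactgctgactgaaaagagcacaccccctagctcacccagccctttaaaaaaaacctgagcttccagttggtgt
Ifit3 (chr19:34583369-34583528, + strand): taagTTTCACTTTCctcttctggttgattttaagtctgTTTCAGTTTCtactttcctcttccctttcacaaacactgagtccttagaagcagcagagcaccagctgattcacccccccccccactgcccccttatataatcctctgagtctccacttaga
Rsad2 (chr12:26456453-26456612, - strand): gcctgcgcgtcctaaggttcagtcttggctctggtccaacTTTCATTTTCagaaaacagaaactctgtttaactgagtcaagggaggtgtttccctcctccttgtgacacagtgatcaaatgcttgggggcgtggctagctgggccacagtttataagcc
Bst2 (chr8:71537473-71537632, - strand): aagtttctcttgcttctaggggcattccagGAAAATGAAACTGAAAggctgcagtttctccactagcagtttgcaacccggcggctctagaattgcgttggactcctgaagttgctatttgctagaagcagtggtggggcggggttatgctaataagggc

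Ifit1 and Ifit3, neighbours on chromosome 19, carry the same pair of match sequences in the same order, TTTCACTTTC and then TTTCAGTTTC. In Bst2 the capitals are 2 matches that overlap. The window of Ifih1 holds its match after the start, shown with its flanks.
Ifih1 (chr2:62646206-62646233, - strand): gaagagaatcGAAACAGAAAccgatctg
The other motif searched, TTCNNNGAA, the core of the gamma-activated site, reads the same on both strands. It was in 1 window each of Bst2 and Ifit2 and in 8.3% of all windows. A match describes these letters and is not evidence of binding.

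None of the 9 measured genes passed the test between LRC and non-LRC. Rtp4 stood furthest apart, lower in all 3 LRC samples than in any non-LRC sample by a mean of 1.90-fold, although its other probe set showed less. For Ifit1, Ifit2 and the brightest of 3 Rsad2 probe sets, LRC replicates 1 and 3 lay below every non-LRC sample, and LRC replicate 2 lay within the non-LRC range. The other 2 Rsad2 probe sets did not show this, and LRC replicate 3 was the highest of the 6 samples on both. Bst2 and Oasl2 had higher means in LRC, with overlapping groups. In bulk samples, fewer cells that express a gene and less of its RNA per cell cannot be told apart.

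Levels are given on the log2 scale of the authors' RMA values, where 1 unit is a doubling. Limma, fitted to all probe sets with Benjamini-Hochberg adjustment and a threshold of 0.05, called 0 of the 12 member probe sets, beside 0% of all 45037. At an unadjusted p under 0.05 there was 1 member probe set, of Rtp4, beside 3.71% of all probe sets. Of the 12, 1 had groups that did not overlap, beside 8.28% of all probe sets. The adjusted p of every member probe set was between 0.998 and 0.999 in limma. Of the 12 probe sets, 10 had a mean level above the 40th percentile of all probe sets.

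The arrays were not equally alike. Array medians ran from 4.33 to 4.39, and LRC replicate 1 had the lowest correlations with the other arrays across probe sets, 0.901 to 0.919. The hybridization controls, bacterial and phage transcripts added to every sample before hybridization, averaged 11.24 on LRC replicate 1 and 11.02 on LRC replicate 3, against 10.58 to 10.70 on the other 4 arrays. The poly-A controls, a separate set of added transcripts, did not fall by group: they averaged 12.79 on LRC replicate 1, 11.92 on LRC replicate 3 and 11.88 on non-LRC replicate 1, against 10.73 to 11.24 on the other 3. Between the 3′ and 5′ control probe sets of Gapdh the gap was 4.16 on LRC replicate 1 and 2.72 to 3.42 on the others. For beta-actin, 3′ minus 5′ was -0.04 on LRC replicate 1 and -0.61 to -0.13 on the others, lowest on LRC replicate 3. Among gate genes, Kit had means of 9.07 in LRC and 9.05 in non-LRC, Slamf1, which encodes CD150, ran from 6.24 to 8.83, and Cd48, negative in the gate, was at 2.34 to 3.27, while Cd34, negative in the gate, ran from 2.52 to 7.43.

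Markers of other blood cells also set single arrays apart. On non-LRC replicate 1 the 7 granulocyte markers averaged 7.03, against 5.20 to 6.24 on the other arrays, and the 5 erythroid markers 5.24, against 3.50 to 4.18. There S100a8, a granulocyte protein, read 8.27 and Car1, an erythroid carbonic anhydrase, 7.34. Klf1 of the erythroid markers read 6.76 on non-LRC replicate 1 and 6.21 on LRC replicate 1, against 2.93 to 4.24 elsewhere. On LRC replicate 1, Mpo, the neutrophil peroxidase, read 4.03, against 7.57 to 9.20. Other granulocyte markers were mixed on that array. Ctsg and Elane were also at their lowest there, 4.67 against 5.66 to 8.02 and 4.61 against 4.71 to 6.20. S100a9 and Prtn3 read 7.51 and 7.38 there, exceeded only on non-LRC replicate 1. S100a8 and Ngp read 5.53 and 2.68 there, neither the highest nor the lowest of the arrays. Vpreb1 of the B cell markers read 9.58 on LRC replicate 1, against 4.96 to 6.84 elsewhere. The mean of the B cell markers was 5.24 on LRC replicate 1 and 4.57 to 4.78 on the others, but these markers did not move together. Cd79b was at its lowest on LRC replicate 1, 5.52 against 6.05 to 7.17. Cd79a, Pax5 and Ebf1 read 3.94, 3.22 and 3.93 on that array. Markers of monocytes, T and NK cells, and megakaryocytes averaged 3.97 to 4.40, 2.93 to 3.44 and 5.42 to 6.10 over the arrays. The part of such cells in the effector values was not tested.

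Ifit1 binds foreign RNA ends and blocks their translation. The non-LRC samples read 5.74, 6.86 and 5.83, and the LRC samples 5.25, 6.47 and 5.05, in the order of their replicate numbers. LRC replicates 1 and 3 lay below every non-LRC sample, and LRC replicate 2 lay above 2 of the 3. The difference was -0.55 (SE 0.48), with a 95% interval from -1.72 to 0.61 that spans both a fall and a rise. Each LRC sample lay below the non-LRC sample of its own number. With the replicate number as a block the SE was 0.19, although the labels name no pairing.

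Ifit2, a second RNA-binding member of the family, had the same split. It read 5.75, 6.60 and 6.67 in the non-LRC samples and 5.24, 6.55 and 5.17 in the LRC samples. The LRC replicate 1 and 3 samples were the 2 lowest of the 6, and LRC replicate 2 was level with non-LRC replicate 2. The difference was -0.69 (SE 0.46, 95% interval -1.79 to 0.42).

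Ifit3, whose human counterpart stabilises IFIT1, varied less. It read 5.28, 5.97 and 5.69 in the non-LRC samples and 5.47, 5.66 and 5.28 in the LRC samples, so that all LRC values lay inside the non-LRC range. Its difference was -0.18 (SE 0.24, 95% interval -0.76 to 0.41). Mice have a near-identical gene, Ifit3b, beside Ifit3, and the sources used here do not say whether the probe set separates the 2.

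The low Ifit1 and Ifit2 values fell on the same 2 arrays as the bright hybridization controls, LRC replicates 1 and 3. With the level of those controls as a covariate, the differences were 0.15 for Ifit1 (SE 0.51), 0.11 for Ifit2 (SE 0.37) and -0.004 for Ifit3 (SE 0.31). Each of these lay within its SE of 0. When LRC replicates 1 and 3 were both left out, which leaves no replication in LRC, they were 0.32, 0.21 and 0.012. Other single arrays moved the values further from 0 or towards it. Without LRC replicate 2 the differences were -0.99 for Ifit1 and -1.14 for Ifit2, neither past the adjusted threshold, and without LRC replicate 3 they were -0.28 and -0.44. Without non-LRC replicate 2 they were -0.19 for Ifit1 and -0.015 for Ifit3, and without non-LRC replicate 1 the Ifit3 difference was -0.36. Non-LRC replicate 1 held the lowest non-LRC value of all 3 Ifit genes. Its poly-A controls were close to those of LRC replicate 3, and its granulocyte and erythroid markers were high. LRC replicate 1, where the poly-A controls were highest, read 5.47 for Ifit3, above the 5.28 of non-LRC replicate 1. The part of the array differences in these values cannot be told apart from that of the group, since LRC replicates 1 and 3 are both of 1 group.

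Rsad2, or viperin, makes a chain-terminating nucleotide that stops viral polymerases, and it had 3 probe sets that did not move alike. The brightest read 7.46, 7.16 and 7.52 in the non-LRC samples and 6.69, 7.30 and 6.15 in the LRC samples. LRC replicates 1 and 3 were again below every non-LRC sample, and LRC replicate 2 was inside their range. The difference was -0.66 (SE 0.32, 95% interval -1.44 to 0.11), and it was -0.30 with the hybridization control covariate and -0.08 without LRC replicates 1 and 3. It was -0.96 without LRC replicate 2 (not past the adjusted threshold) and -0.38 without LRC replicate 3. The second probe set ran from 3.41 to 4.45 in non-LRC and from 3.30 to 4.51 in LRC, a difference of 0.07 (SE 0.42). The third, at 2.43 to 3.00 in non-LRC and 2.72 to 3.04 in LRC, differed by 0.24 (SE 0.23), from 0.12 without non-LRC replicate 3 to 0.41 without non-LRC replicate 2. Its values lay within the range of a bacterial tryptophan gene's control probe sets on these arrays, 2.06 to 3.41. The mean of the 3 probe sets differed by -0.12.

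**Figure D1:**
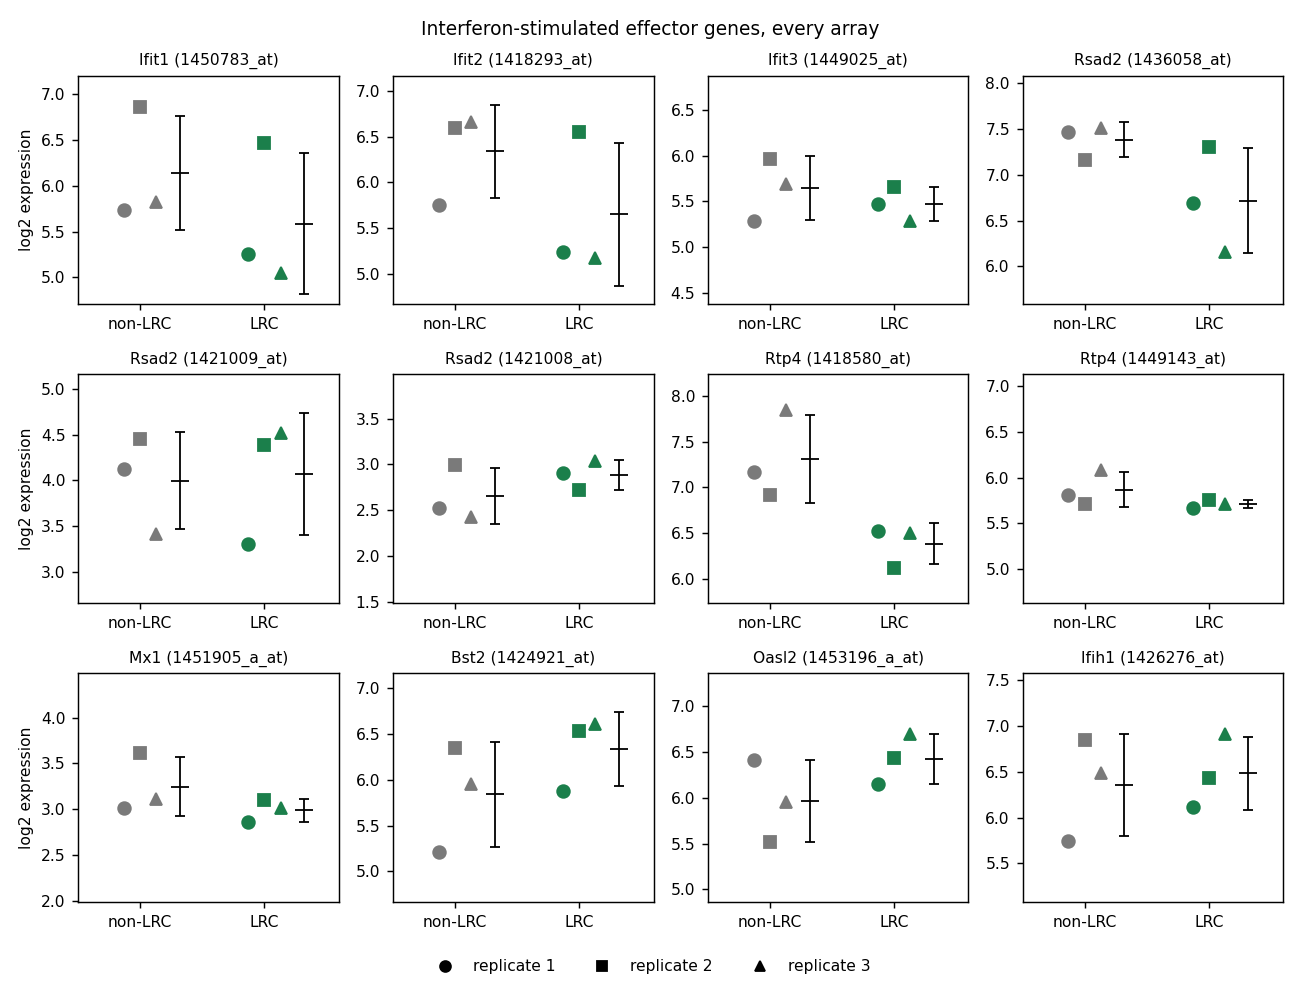
Log2 expression (vertical axis, each panel spanning the same number of log2 units) of the 12 member probe sets in the non-LRC (grey) and LRC (green) samples. Marker shape gives the replicate number, and bars show the mean and SD of 3 samples. The brighter Rtp4 probe set is the only panel where the groups do not overlap, and LRC replicate 2 lies apart from the other 2 LRC samples for Ifit1 and Ifit2.

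Rtp4 was named for carrying receptors to the cell surface and is also an antiviral zinc-finger protein. Its brighter probe set read 7.17, 6.91 and 7.84 in the non-LRC samples and 6.52, 6.12 and 6.50 in the LRC samples. The highest LRC value lay 0.39 below the lowest non-LRC value. The difference was -0.92 (SE 0.29, 95% interval -1.63 to -0.22), with an unadjusted limma p of 0.0183 and an adjusted p of 0.998. Groups with all LRC values below all non-LRC values were found for 3.4% of all probe sets.

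In contrast to the Ifit genes, Rtp4 was lowest in LRC replicate 2, an array without bright hybridization controls. Its difference was -1.09 with those controls as a covariate and -1.18 without LRC replicates 1 and 3. Of the fits that left out 1 array, the one without non-LRC replicate 3, the highest sample, gave the smallest difference, -0.66. The other Rtp4 probe set read 5.81, 5.72 and 6.09 in the non-LRC samples and 5.67, 5.76 and 5.71 in the LRC samples. There LRC replicate 2 lay above non-LRC replicate 2, so the groups overlapped, and the difference was -0.16 (SE 0.19), and -0.05 without non-LRC replicate 3. The mean of both probe sets differed by -0.54.

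Mx1, a dynamin-like GTPase that restricts influenza virus in the nucleus, read 3.02, 3.61 and 3.11 in the non-LRC samples and 2.86, 3.11 and 3.01 in the LRC samples. All samples but non-LRC replicate 2 lay within the range of the tryptophan controls. Its difference was -0.26 (SE 0.23), and -0.07 without non-LRC replicate 2. Many laboratory mouse strains carry a defective Mx1 allele.

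Bst2, or tetherin, anchors budding virions to the cell membrane and is also a surface marker of plasmacytoid dendritic cells. It read 5.22, 6.35 and 5.96 in the non-LRC samples and 5.87, 6.53 and 6.61 in the LRC samples. LRC replicates 2 and 3 were the 2 highest samples, and LRC replicate 1 lay inside the non-LRC range. The difference was 0.50 (SE 0.36, 95% interval -0.38 to 1.37), and it was 0.18 without non-LRC replicate 1, the lowest sample, 0.75 without non-LRC replicate 2 and 0.87 with the hybridization control covariate. Non-LRC replicate 1 is also the array where the granulocyte and erythroid markers were high.

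Markers of plasmacytoid dendritic cells were set beside Bst2. Siglech, a surface lectin of these cells, was at 5.36 to 5.66 in non-LRC and 5.08 to 5.60 in LRC. Tcf4, a transcription factor of these cells and the marker of smallest p among them, read 10.19 on LRC replicate 1 and 8.45 to 8.98 on the other arrays. Over the 7 markers of that list, the mean level per array ran from 4.97 to 5.16 in non-LRC and from 4.95 to 5.45 in LRC, with LRC replicate 1 highest. Of these 7, 4 had a higher mean in LRC and 0 passed the limma test or reached an unadjusted p under 0.05. The part of such cells in the Bst2 values was not tested.

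Oasl2, a relative of the oligoadenylate synthetases that switch on RNA decay, read 6.41, 5.52 and 5.96 in the non-LRC samples and 6.15, 6.44 and 6.70 in the LRC samples. LRC replicates 2 and 3 were above every non-LRC sample, although LRC replicate 2 exceeded non-LRC replicate 1 by a margin of only 0.02. The difference was 0.46 (SE 0.29, 95% interval -0.24 to 1.16). It kept its sign under each of 15 other settings, from 0.24 without non-LRC replicate 2 to 0.69 without non-LRC replicate 1.

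Ifih1, or MDA5, is the cytosolic sensor of long double-stranded RNA. It read 5.74, 6.84 and 6.48 in the non-LRC samples and 6.11, 6.43 and 6.91 in the LRC samples, and the groups overlapped over most of their range. The difference was 0.13 (SE 0.36, 95% interval -0.73 to 0.99).

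**Figure D2:**
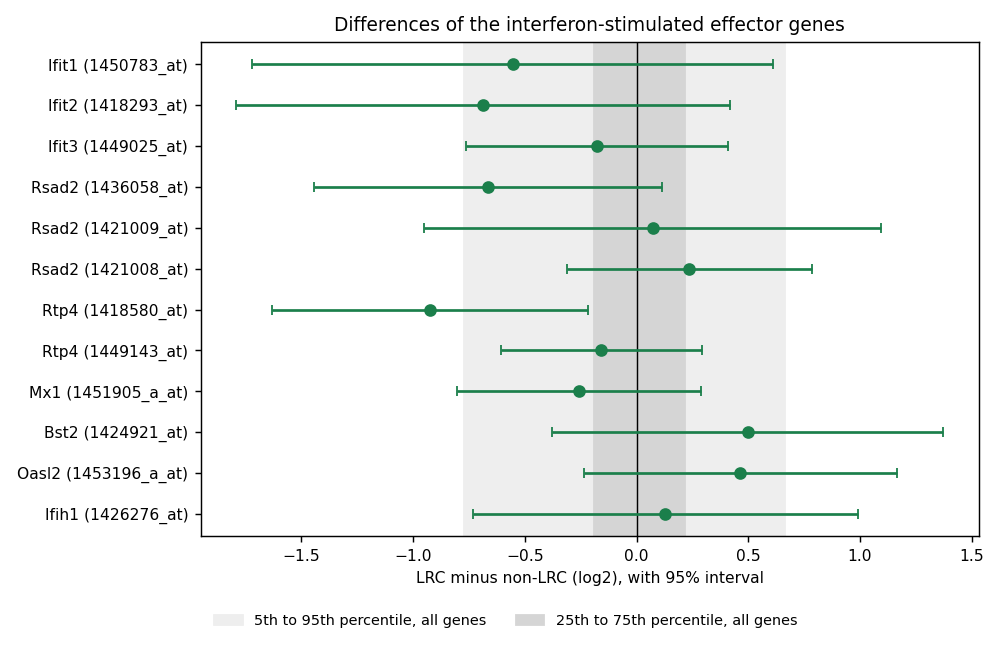
Difference LRC minus non-LRC (horizontal axis, log2) of the 12 member probe sets, with 95% limma intervals. Shading spans the middle of all 18193 genes, from -0.77 to 0.66 for the 5th to 95th percentile and from -0.19 to 0.21 for the 25th to 75th. The interval of the brighter Rtp4 probe set, from -1.63 to -0.22, is the only 1 of 12 that does not include 0.

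Among the 9 genes, each by its probe set of highest mean, 6 had a lower mean in LRC and 3 a higher one, beside 45.1% of all 18193 genes lower. Their median difference was -0.26, against 0.03 over all genes. That median is the value of Mx1, most of whose samples lay within the range of the tryptophan controls. It was -0.37 with low probe sets left out and -0.07 without non-LRC replicate 2. The median SD within a group was 0.43 for the members and 0.35 over all genes. The members did not rise and fall as 1 block: LRC replicate 3 held the lowest value of 3 genes (Ifit1, Ifit2, Rsad2) and the highest of 3 others (Bst2, Oasl2, Ifih1). Averaged over the 9 genes, the level was 5.75, 6.20 and 6.12 in non-LRC and 5.57, 6.07 and 5.71 in LRC, so replicates within a group differed by up to 0.49 and the groups overlapped. The direction of the median was not the same in all settings: it was 0.11 with the hybridization control covariate and 0.08 without LRC replicates 1 and 3.

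**Figure D3:**
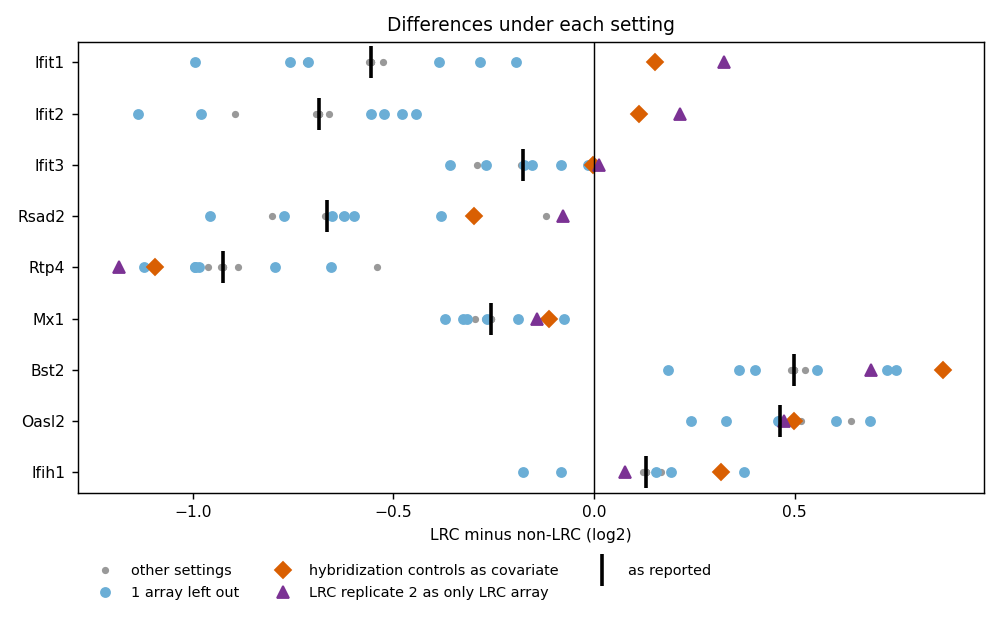
Difference LRC minus non-LRC (horizontal axis, log2) for the probe set of highest mean of each of the 9 genes, as reported and under each other setting. Rtp4 stays between -1.18 and -0.54, while Ifit1 and Ifit2 move from below 0 to above it when the hybridization controls enter as a covariate or when LRC replicates 1 and 3 are left out.

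The genes whose profile over the 6 arrays was nearest to the mean profile of the 9 were Paics, Tubb5, Cdc42, Plk4 and Uri1. Their root mean square distance, after each profile was centred on its own mean, was 0.04 to 0.07 on the log2 scale, among 12447 genes compared. Paics, the nearest, read 9.89, 10.25 and 10.23 in the non-LRC samples and 9.72, 10.17 and 9.87 in the LRC samples, so that among the LRC samples replicate 2 was highest, as for the Ifit genes.

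Upstream of the effectors, 16 of 17 genes of the interferon receptors and JAK-STAT signalling were measured, and 0 passed the limma test in either direction, nor did any reach an unadjusted p under 0.05. Of these 16, 6 had a lower and 10 a higher mean in LRC, with a median difference of 0.09. Ifnar2, the receptor chain that binds Stat proteins, read 9.66, 8.54 and 8.47 in the non-LRC samples and 6.82, 8.81 and 7.95 in the LRC samples, a difference of -1.03 (SE 0.58). LRC replicate 1 was the lowest sample, and LRC replicate 2 lay inside the non-LRC range. Ifnar1, the other chain, differed by 0.72 (SE 0.51), Ifngr1, a receptor chain for interferon gamma, by 0.44 (SE 0.29), and Tyk2, the kinase bound to Ifnar1, by -0.38 (SE 0.27).

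Of 19 genes of nucleic acid sensing and interferon induction, 18 were measured and 0 passed the limma test, with 4 at an unadjusted p under 0.05, all higher in LRC, beside 1.73% of all genes higher at that threshold. There were 12 higher and 6 lower in LRC and a median difference of 0.09. For the same 4 of the 18, Ikbke, Tbk1, Irf3 and Irf5, all LRC values lay above all non-LRC values, which was so for 4.71% of all genes. Ikbke, a kinase that activates Irf3, read 5.07, 5.47 and 4.99 in the non-LRC samples and 7.55, 5.74 and 6.25 in the LRC samples, a difference of 1.34 (SE 0.47). The LRC replicate 1 sample was the highest and LRC replicate 2 exceeded the non-LRC samples by 0.27 or more.

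Tbk1, the related kinase, read 7.80, 8.02 and 7.50 in the non-LRC samples and 8.83, 8.04 and 8.69 in the LRC samples, a difference of 0.75 (SE 0.28). Here LRC replicate 2 was level with non-LRC replicate 2, and the arrays with bright hybridization controls, LRC replicates 1 and 3, were the high ones. Irf3, the factor that these kinases switch on to induce interferon beta, differed by 0.62 (SE 0.22), with LRC replicate 2 at 7.32 again the lowest of the LRC samples. Irf5, a related factor, differed by 0.46 (SE 0.18), with LRC samples at 7.35 to 7.55. The adjusted limma p of each of the 4 was 0.998, and the part of the array differences in them was not tested.

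Other interferon-stimulated genes, 48 of 50 measured, gave 0 calls by limma, and at an unadjusted p under 0.05 there were 1 lower and 2 higher in LRC, beside 2.02% of all genes lower and 1.73% higher. By their means, 20 were lower and 28 higher in LRC, with a median difference of 0.07. Gbp3, a guanylate-binding protein, read 6.06, 5.96 and 5.65 in the non-LRC samples and 5.15, 5.32 and 5.21 in the LRC samples, a difference of -0.67 (SE 0.19). Ifi27l2a, induced by interferon alpha, differed by -0.49 (SE 0.22), and these were the 2 of 48 with all LRC values below all non-LRC values, beside 3.62% of all genes. Oas2, a synthetase that activates RNase L, read 4.54, 4.44 and 4.41 in the non-LRC samples and 4.95, 5.10 and 4.81 in the LRC samples, a difference of 0.49 (SE 0.18). Oas2 and Trafd1, an inhibitor of innate immune signalling named after its values were seen (difference 0.55, SE 0.30), were the 2 of 48 with all LRC values above all non-LRC values, beside 4.71% of all genes. Ifi35 ran from 6.51 to 9.34 in non-LRC and from 9.33 to 10.25 in LRC, a difference of 1.75 (SE 0.71) with non-LRC replicate 3 just above the lowest LRC sample. As with the 9 effectors, genes of the same response lay on both sides of 0.

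**Figure D4:**
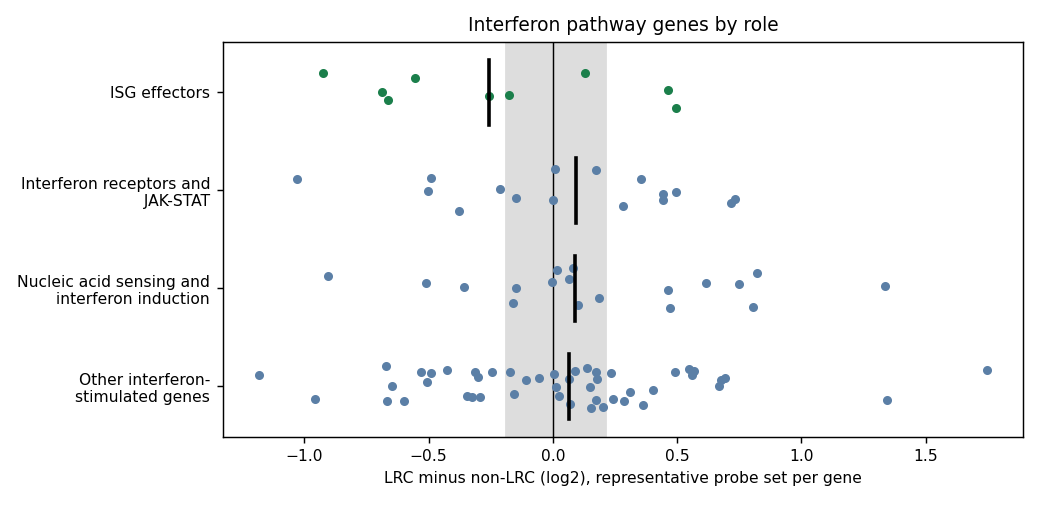
Difference LRC minus non-LRC (horizontal axis, log2) of each gene in 4 lists, by its probe set of highest mean, with list medians as black bars and the 25th to 75th percentile of all genes shaded. The median is -0.26 for the effectors and 0.09, 0.09 and 0.07 for the other lists, and every list has genes on both sides of 0.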

How the data were processed

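The authors deposited log2 values for each probe set on each array. The submitters' processing notes name RMA without a version, and base 2 was inferred from the spread of the numbers. RMA makes the arrays' distributions nearly equal, which hides any change in a cell's total RNA. Per the labels' protocols, RNA was amplified in 2 rounds before labelling. Of 45101 probe sets, 64 controls were left out. Of the 45037 tested, 34945 carried 1 gene symbol in the platform annotation, 932 several and 9160 none. The difference LRC minus non-LRC was fitted over all probe sets with lmFit and eBayes of limma 3.58.1 (R 4.3.3), without covariates. Errors of differences are moderated standard errors. Lists are described by counts and medians, with no test.

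The members and lists were chosen with earlier results of these data known. All members were named, with every probe set. From each other pathway list the 4 genes of smallest p were named, and the 5 genes nearest in profile among those above the 40th percentile. Genes named from the marker lists were chosen after their values were seen. For genes with several probe sets outside the members, the one of highest mean was used. Listed names that were older synonyms of 1 gene were matched to it. On simulated arrays with 45037 probe sets, limma recovered 0% of probe sets changed by 1 on the log2 scale, 46% at 2, 68% at 3 and 78% at 4, with 3 false calls. Precision is limited by the number of arrays.

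Other settings were a second quantile step, centring on array medians, a filter on low probe sets, trend and robust moderation, array weights, a replicate block, a covariate, an unadjusted threshold, the mean of a gene's probe sets and leaving out arrays.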

Additional observations from a re-analysis of the deposited data

How the results depend on the processing

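Limma called 0 probe sets, and 0 of the members, under each of the 14 other settings that kept the adjusted threshold. In the main fit, an unadjusted threshold of 0.05 was met by 1673 probe sets, of which 1 was a member, Rtp4. The median difference of the members, -0.26, ran from -0.37 to -0.07 when single arrays were left out. Signs of values that had not passed changed as follows. With the level of the hybridization controls as a covariate, Ifit1 differed by 0.15 (SE 0.51) and Ifit2 by 0.11 (SE 0.37). Without LRC replicates 1 and 3, where the 1 LRC array left is assumed to vary like the non-LRC arrays, Ifit1 differed by 0.32, Ifit2 by 0.21 and Ifit3 by 0.012. When single arrays were left out, Ifih1 ran from -0.18 to 0.37 and the second Rsad2 probe set from -0.22 to 0.45. The cause of these changes was not tested. With the replicate block, 0 probe sets passed and the Rtp4 difference was -0.92 (adjusted p = 0.929 in limma, and 0.717 to 1.00 over the 15 other settings). Deviations from group means correlated across probe sets at 0.08, 0.14 and 0.08 between same-numbered samples. Between samples of different number they correlated at -0.09 to -0.01, so each sample correlated best with its own number. The labels name no pairing, so the main fit did not pair the numbers. Whether the numbers mark pairs was not settled. With the block, the SE fell from 0.48 to 0.19 for Ifit1 and from 0.36 to 0.21 for Bst2. It rose from 0.29 to 0.31 for Oasl2 and from 0.32 to 0.35 for the brightest Rsad2 probe set. The limma p of Ifit1 with the block was 0.042 unadjusted and 0.929 adjusted. On the simulated arrays, 0% of the 50 probe sets changed by 1 on the log2 scale passed the adjusted threshold. A member that was not called may therefore still differ.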
